A study of Homo sapiens with 4 samples.

Results

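SNHG1 is a noncoding host gene whose introns carry 8 C/D box small nucleolar RNAs (snoRNAs), SNORD22 and SNORD25 to SNORD31, and these snoRNAs were followed in small RNA libraries of HEK293T cells. Members were chosen by symbol and by position inside SNHG1 (chromosome 11, 62851978 to 62855885, minus strand, RefSeq GRCh38.p14). Of the 8, 6 were matched among 7062 features in the count tables: SNORD22, SNORD25, SNORD26, SNORD27, SNORD28 and SNORD30. SNORD29 and SNORD31 were not analysed here. HEK293T is a human embryonic kidney cell line, and the cells of each group were transiently transfected with 1.5 µg per well of a plasmid for RPB1 (the subunit of RNA polymerase II that carries the catalytic site) whose C-terminal domain of 52 heptad repeats was of the 52X T4A or the 52X WT kind. In the former, alanine takes the place of Thr4 of the repeats, which removes a phosphorylation site. Expression was thus transient, from a plasmid rather than from the endogenous gene. Both groups were then kept for 72 h in α-amanitin at 2.5 µg/ml, a toxin that inactivates the endogenous enzyme. Per the labels, a pilot time course had shown loss of cells without a plasmid by then. There were 2 libraries per group, described as biological replicates, and no untransfected or untreated library was analysed here. The comparison asks how these snoRNAs differ in level between cells given RPB1 without and with Thr4 of the repeats. How much of SNHG1 transcription the plasmid enzyme carried out, and how much snoRNA predates it, was not measured here.

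C/D box snoRNAs are short stable RNAs that guide 2′-O-methylation of ribosomal RNA by base pairing next to a conserved box. In human cells most of them are not transcribed on their own. They are cut out of introns of host transcripts made by RNA polymerase II, after splicing, and their ends are protected by proteins bound at boxes C and D. The exons of SNHG1 form a noncoding RNA, so the introns of this gene hold its best known products. All 8 snoRNAs begin as parts of the same host transcript. SNORD26, SNORD29, SNORD30 and SNORD31 guide methylation of the large ribosomal subunit RNA, SNORD25, SNORD27 and SNORD28 guide methylation of the small subunit RNA, and SNORD22 is required for processing of the small subunit RNA.

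The sequences of 3 measured members are shown first, since the reads were counted on them and since near copies elsewhere in the genome could share those reads. Each was found by aligning a copy named for it by GENCODE to the transcripts of SNHG1 in GENCODE v44lift37 (annotation lifted to GRCh37). A segment was kept only where its length equalled the length in the count tables. That equality is thus a rule of selection and no check of the ends of a sequence. Capitals mark TGAT of the box C core within the first 15 bases and CTGA of box D within the last 15.
SNORD27: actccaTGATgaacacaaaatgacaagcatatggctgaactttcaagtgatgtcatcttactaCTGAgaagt
SNORD28: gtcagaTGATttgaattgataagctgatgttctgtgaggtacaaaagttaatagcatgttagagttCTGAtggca
SNORD30: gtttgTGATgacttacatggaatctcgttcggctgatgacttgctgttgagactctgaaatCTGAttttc
The 5′ ends of SNORD27 and SNORD28 lay 388 bases apart in an unspliced SNHG1 transcript and 388 bases apart in the count tables. Both boxes, searched on the sense strand, were present in 198 of 321 GENCODE snoRNAs named SNORD of 60 to 90 bases (61.7%) and in 5 of 1763 miRNA precursors of that length (0.284%).

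The copies held few or no reads. The copy of SNORD27 on chromosome 13 (21139886 to 21139957) was identical at 62 of 72 aligned bases, and it had 51, 76, 22 and 30 counts in 52X T4A replicates 1 and 2 and 52X WT replicates 1 and 2, against 1548, 2562, 2698 and 2211 at SNORD27 itself. A copy of SNORD28 on chromosome 18 had 22, 35, 25 and 15 counts in that order, against 313, 662, 356 and 351 at SNORD28 itself. SNORD28B on chromosome 6 had at most 5 counts in a library, and the copy of SNORD30 on chromosome X had 0 in every library. For none of the 6 members did another feature hold counts within 2% in all 4 libraries. That check cannot see reads shared in part. In every library the copies of SNORD27, SNORD28 and SNORD30 held far fewer counts than the members they resemble. Copies were sought by name alone, and no copy was found by name for SNORD22, SNORD25 or SNORD26.

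A copy of one member absent from the comparison did hold reads. SNORD31B, on chromosome 13 (107320895 to 107320963), had 1657, 1639, 2239 and 1020 counts in the same order of libraries. The stretch of SNHG1 that aligned to it is given beside it, because 62 of 69 aligned columns were identical.
SNORD31, aligned stretch: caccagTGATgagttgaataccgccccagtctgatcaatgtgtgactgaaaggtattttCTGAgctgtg
SNORD31B: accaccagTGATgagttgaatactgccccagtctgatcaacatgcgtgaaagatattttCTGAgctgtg
How reads of SNORD31 were treated where they resemble SNORD31B was not tested, and SNORD31B was not counted as a member.

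Depth and replicates bear on every value that follows. Total counts per library ran from 16180790 to 27370127. CPM below is the count per 1000000 of the TMM-adjusted library size, TMM being a scaling that takes most features as equal between libraries. For log2 CPM ratios of libraries within a group, the SD over 1472 features averaging 10 or more counts came to 0.516 for 52X T4A against 0.782 for 52X WT. It was widest where 52X WT replicate 1 was paired with a library of the other group, at 0.86 and 0.858. Replicate 1 of 52X WT thus stood apart, and members' values that rest on it are given with and without it. The tables name small RNAs only, which cannot define embryonic kidney cells. MIR10A and MIR10B, abundant in HEK293 cells but not specific to them, had at least 1502651 counts each in every library. Of the 11 miRNAs on that list, 9 were below 0 in log2 fold change (median −0.48) and none was called (edgeR). For 7 of the 11 the groups did not overlap and 52X T4A was lower, where this held for 21.2% of all features. At an unadjusted p below 0.05 (edgeR), 3 of the 11 were lower, where 6.28% of all features were. Among markers of other cell types, MIR122 of liver had at most 15 counts in a library. The 6 miRNAs typical of muscle summed to 96.7 and 81.6 CPM in 52X T4A against 30.5 and 33.1 CPM in 52X WT. Of these, 4 of 4 tested were higher in 52X T4A at an unadjusted p below 0.05 with none called (edgeR), where 3.99% of all features were higher. MIR1-1 and MIR1-2 had nearly the same counts in every library, as did MIR133A1 and MIR133A2, so these loci are not independent of each other. The 6 of blood summed to 32 and 42.5 CPM in 52X T4A against 61.5 and 50 CPM in 52X WT, most of it MIR486-1, the 1 of 3 tested that was below 0 in log2 fold change (−0.65). The other 2, MIR142 and MIR150, were above 0 at 0.73 and 1.73, the latter at an unadjusted p below 0.05, and none of the 3 was called (edgeR).

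Taken per length, read levels of the snoRNAs of this one host differed by more than 3 orders of magnitude. Compared per length, as CPM per 100 nt of snoRNA averaged over the 4 libraries, SNORD30 was highest at 3068 and SNORD22 lowest at 1.76, a ratio of 1746. Within a library the ratio of the highest to the lowest ran from 1093 to 2835. SNORD26 followed SNORD30 at 1030, then SNORD27 at 167, SNORD25 at 156 and SNORD28 at 27.9.

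Neighbours in the order per length were separated in all but a single pair. The ranges over the 4 libraries did not overlap between SNORD30 and SNORD26 (2.98-fold apart), SNORD26 and SNORD27 (6.16-fold), SNORD25 and SNORD28 (5.59-fold) or SNORD28 and SNORD22 (15.9-fold). SNORD27 and SNORD25 overlapped and differed by 1.07-fold. Their order was also the only change of rank between groups, since SNORD25 was above SNORD27 in both 52X T4A libraries and below it in both 52X WT libraries. As a description over 6 snoRNAs, Spearman's rho between libraries was 1 within each group and 0.943 between groups.

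**Figure D1:**
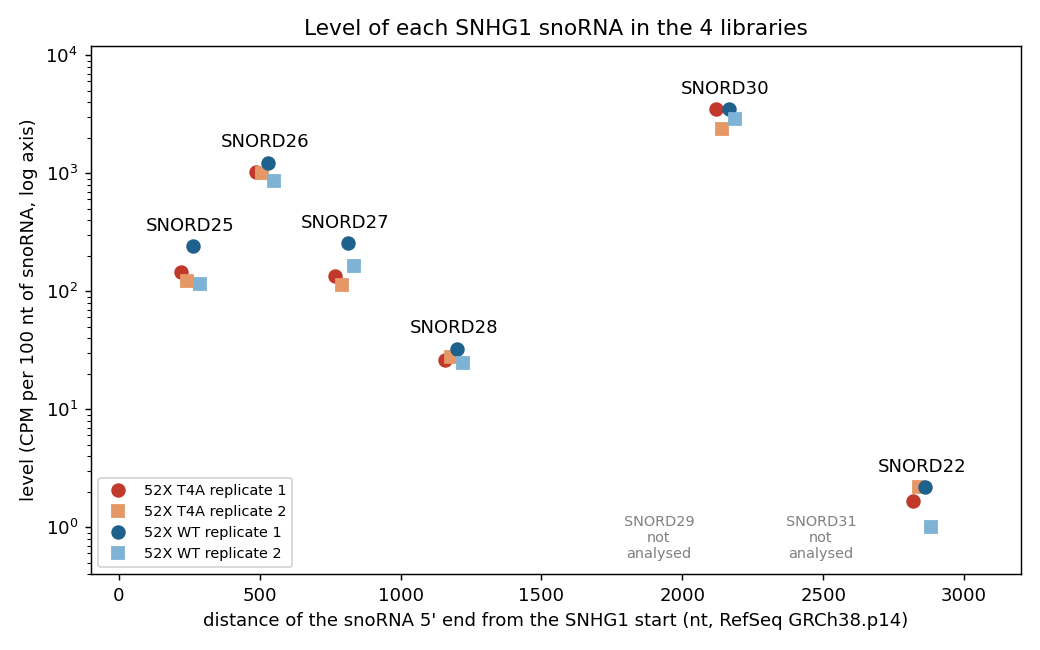
Level of each SNHG1 snoRNA (CPM per 100 nt, log axis) against the distance of its 5′ end from the start of SNHG1 (nt). Circles and squares are replicates 1 and 2 (red shades 52X T4A, blue shades 52X WT), shifted sideways so that they can be told apart, and most snoRNAs lie further from each other than their libraries do, from 1.76 on average for SNORD22 to 3068 for SNORD30.

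The level did not follow the place in the host. From the start of SNHG1 the measured snoRNAs come in the order SNORD25 (5′ end 254 nt from the start), SNORD26 (519 nt), SNORD27 (802 nt), SNORD28 (1190 nt), SNORD30 (2153 nt) and SNORD22 (2850 nt). Of these 6, the highest was thus next to last, and the lowest was the last. SNORD29 and SNORD31, which lie on either side of SNORD30 in the host, were not analysed. Among 147 tested C/D box snoRNAs with a name supported by RefSeq, the 6 included, whose median level was 55.6 CPM per 100 nt, SNORD30 ranked 4th and SNORD26 8th. SNORD27, SNORD25, SNORD28 and SNORD22 ranked 40th, 42nd, 89th and 134th. Reads of 50 bp are shorter than every one of the 6, which are 69 to 126 nt long in the tables, so a count reports the part of a snoRNA that entered the library and not always its full length.

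The summed level of the 6 was not separated between the groups. Together they were read 54597 and 82381 times in 52X T4A and 54801 and 54075 times in 52X WT. The summed level was 3449 and 2609 CPM in 52X T4A against 3755 and 2872 CPM in 52X WT, so that in both groups replicate 1 was the higher and the groups overlapped. Group means (± SD, n = 2) were 3029 ± 594 CPM for 52X T4A against 3314 ± 624 CPM for 52X WT. The log2 ratio of 52X T4A to 52X WT was −0.13, smaller than the replicate SD of 0.28, and an exact two-sided permutation test gave p = 0.667. With 2 libraries per group that test cannot go below 0.333. The ratio was −0.03 without 52X WT replicate 1, and leaving out each library in turn gave −0.35 to 0.09, the highest without 52X T4A replicate 2. In bulk RNA, a smaller number of producing cells and less RNA per cell cannot be told apart.

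As a share of all counts summed over features, the 6 took 0.337% and 0.301% in 52X T4A and 0.338% and 0.282% in 52X WT. The 95% Wilson intervals were 0.335 to 0.34, 0.299 to 0.303, 0.336 to 0.341 and 0.28 to 0.285, from counting error alone. That total, like the C/D box total below, may hold a read more than once, since separate entries named SNORD38B had the same counts. As a share of the C/D box snoRNA counts they took 7.55% and 7.72% in 52X T4A (95% Wilson intervals 7.49 to 7.61 and 7.67 to 7.77) and 7.44% and 8.09% in 52X WT (7.38 to 7.5 and 8.03 to 8.16). The 52X T4A values lay between those of 52X WT. All C/D box snoRNAs together took 4.19% ± 0.402 of a library in 52X T4A against 4.02% ± 0.751 in 52X WT (SD, n = 2).

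Each snoRNA was then tested in a fit across all 1480 features that passed the filter on low counts, all 6 members among them. A feature was called at a Benjamini-Hochberg adjusted p (FDR) below 0.05 and a fold change above 1.5. None of the 6 was called by edgeR's quasi-likelihood test, where 0.135% of all features were. DESeq2 called none of the 5 members that it gave an adjusted p, where it called 3.1% of 935 features. At an unadjusted p below 0.05 in edgeR, 1 of the 6 was lower in 52X T4A and 0 were higher, where 6.28% of all features were lower, 3.99% higher and 10.3% either. DESeq2 likewise had 1 of the 6 lower at an unadjusted p below 0.05, where 5.74% of all features were. The median log2 fold change was −0.10 over the 6 (1 above 0 and 5 below), −0.05 over all tested features and −0.17 over the 147 tested C/D box snoRNAs outside SNHG1. Over the 6 it turned to 0.09 without 52X WT replicate 1.

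**Figure D2:**
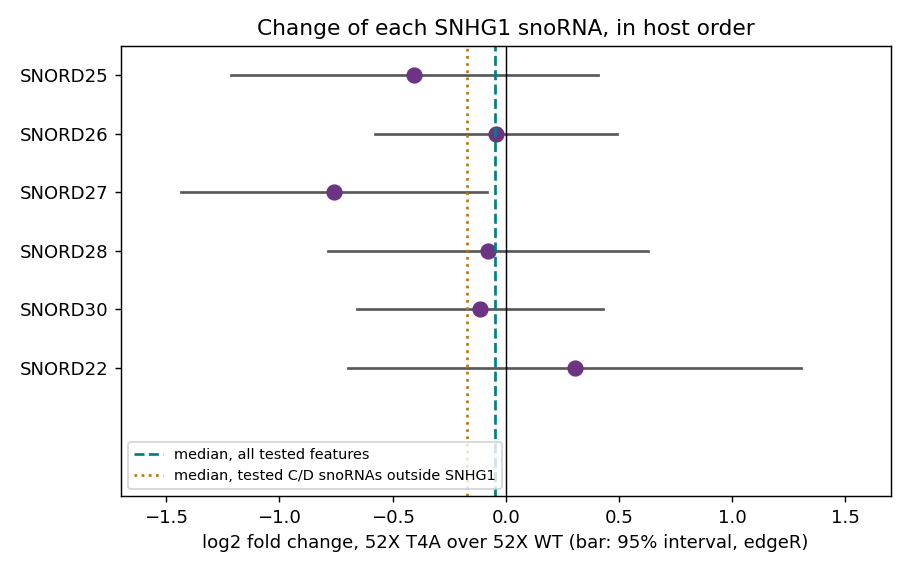
Log2 fold change of each snoRNA between 52X T4A and 52X WT, in host order, with the 95% interval from edgeR as a bar (n = 2 libraries per group). The dashed and dotted lines are the medians of all tested features (−0.05) and of C/D box snoRNAs outside SNHG1 (−0.17), and only the interval of SNORD27 does not reach 0.

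SNORD30 (ENSG00000277846.1, chromosome 11, 62853663 to 62853732) guides methylation of the large subunit RNA and supplied most of the reads. It had 38831 and 52812 counts in 52X T4A and 35861 and 37796 in 52X WT, or 2453 and 1673 CPM against 2458 and 2008 CPM. Replicate 1 of both groups sat at nearly the same level, and the lowest library was 52X T4A replicate 2. The log2 fold change was −0.11 ± 0.24 (SE), with a 95% interval from −0.66 to 0.43 and an FDR of 0.914 in edgeR's test. SNORD26 (ENSG00000276788.1, 62855292 to 62855366), also a guide for the large subunit RNA, had 12269 and 23598 counts in 52X T4A and 13411 and 12210 in 52X WT. It was at 775 and 747 CPM in 52X T4A against 919 and 649 CPM in 52X WT. Both 52X T4A libraries lay between the 52X WT libraries, at a log2 fold change of −0.04 ± 0.24 (SE, 95% interval −0.58 to 0.49, edgeR FDR 0.981). The direction of both large subunit guides turned with upper quartile factors, library size alone or factors from C/D box snoRNAs (SNORD30 to 0.05, 0.05 and 0.03, SNORD26 to 0.14, 0.15 and 0.15). Those scalings moved the median of all features to 0.13, 0.14 and 0.10.

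SNORD27 (ENSG00000275996.1, 62855012 to 62855083) guides methylation of the small subunit RNA, and it was the only member whose groups did not overlap. Its counts were 1548 and 2562 in 52X T4A and 2698 and 2211 in 52X WT. These are 97.8 and 81.1 CPM in 52X T4A against 185 and 117 CPM in 52X WT. Every 52X T4A library was below every 52X WT library, with log2 ratios over the 4 pairs from −1.19 to −0.26. Non-overlapping groups were seen for 40.1% of all tested features, 21.2% with 52X T4A lower and 18.9% with it higher. The gap between groups, 0.76 on the log2 scale as fitted, compares with 0.27 between the 52X T4A replicates and 0.65 between those of 52X WT. The log2 fold change was −0.76 ± 0.30 (SE), or 0.592-fold, with a 95% interval from −1.43 to −0.08. The unadjusted p in edgeR's fit was 0.032 and the FDR 0.421, so the difference did not pass correction. Over the alternatives that used all 4 libraries the log2 fold change kept its sign, from −0.77 to −0.56. Its unadjusted p was no longer below 0.05 after upper quartile, library size or C/D box scaling, nor without 52X T4A replicate 1, 52X T4A replicate 2 or 52X WT replicate 1. The log2 fold change was −0.91 without 52X T4A replicate 1 and −0.61 without 52X T4A replicate 2. Of the fits with a library left out, it was smallest in size without 52X WT replicate 1. Without that library it was −0.49 (edgeR FDR 0.597), with 1.83% of all features called lower, and without 52X WT replicate 2 it was −1.04 (edgeR FDR 0.00942), a fit in which 9.87% of all features were called lower. The summed muscle miRNAs, higher in both 52X T4A libraries, moved opposite to SNORD27, and their part in its difference was not tested.

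SNORD25 (ENSG00000275043.1, 62855564 to 62855632), the first snoRNA of the host and a guide for the small subunit RNA, had 1603 and 2660 counts in 52X T4A and 2435 and 1483 in 52X WT. Its level was 101 and 84.2 CPM in 52X T4A against 167 and 78.8 CPM in 52X WT. Its 52X WT replicates bracketed the 52X T4A libraries and were 1.08 apart on the log2 scale, more than the difference between groups. The log2 fold change was −0.40 ± 0.36 (SE, 95% interval −1.22 to 0.41, edgeR FDR 0.669). It turned to 0.13 without 52X WT replicate 1 (edgeR FDR 0.948), and without 52X WT replicate 2 it was −0.84 and called (edgeR FDR 0.0451).

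SNORD28 (ENSG00000274544.1, 62854621 to 62854695), the remaining guide for the small subunit RNA, differed little between the 52X T4A replicates. It was at 19.8 and 21 CPM there, both inside the range of 52X WT at 24.4 and 18.6 CPM. The log2 fold change was −0.08 ± 0.31 (SE, 95% interval −0.78 to 0.63, edgeR FDR 0.967), and the groups overlapped. Its direction turned with upper quartile factors (0.10), library size alone (0.11) and factors from C/D box snoRNAs (0.10).

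SNORD22 (ENSG00000277194.1, 62852910 to 62853035), the longest member and the one that acts in rRNA processing, was read only 33 and 87 times in 52X T4A and 40 and 24 times in 52X WT. This gave 2.08 and 2.76 CPM in 52X T4A against 2.74 and 1.27 CPM in 52X WT, with overlapping groups. The log2 fold change of 0.30 ± 0.45 (SE) had the widest interval of the 6, from −0.70 to 1.30 (edgeR FDR 0.831), and leaving out 52X WT replicate 2 turned it to −0.16, while leaving out 52X WT replicate 1 raised it to 0.86.

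The 52X WT replicates differed in 1 direction throughout. Every one of the 6 was higher in 52X WT replicate 1 than in 52X WT replicate 2, by 0.29 (SNORD30) to 1.10 (SNORD22) on the log2 scale of CPM. This was not particular to SNHG1. All C/D box snoRNAs together took 4.55% of the counts in 52X WT replicate 1 against 3.49% in 52X WT replicate 2. Of those C/D box counts the 6 took 7.44% and 8.09%. Between the 52X T4A replicates, the log2 ratio of replicate 1 to replicate 2 ran from −0.40 (SNORD22) to 0.55 (SNORD30), above 0 for 4 of the 6.

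**Figure D3:**
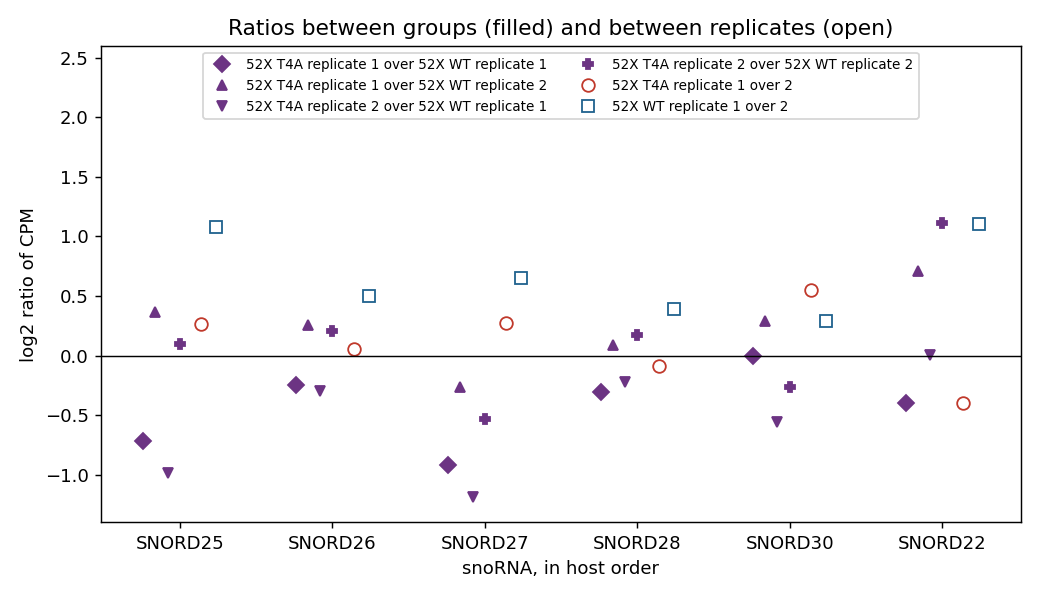
Log2 ratios of CPM for each snoRNA, in host order. Filled symbols compare each 52X T4A library with each 52X WT library, open symbols compare the replicates of one group, and all 4 filled symbols of SNORD27 lie below 0, from −1.19 to −0.26, while the open square of 52X WT lies above 0 for every snoRNA.

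Because the 6 are released from the same transcript, their shares of the summed SNHG1 snoRNA counts were compared as well, a measure in which the scaling between libraries cancels. SNORD30 took 71.1% and 64.1% in 52X T4A and 65.4% and 69.9% in 52X WT. SNORD26 took 22.5% and 28.6% in 52X T4A and 24.5% and 22.6% in 52X WT. These 2 snoRNAs thus accounted for most of the reads in every library, and the groups overlapped for both. The share of SNORD25 averaged 3.08% ± 0.207 in 52X T4A against 3.59% ± 1.2 in 52X WT (SD, n = 2). In the same order of groups it averaged 0.688% ± 0.163 against 0.649% ± 0.000371 for SNORD28, and 0.083% ± 0.0319 against 0.0587% ± 0.0202 for SNORD22. The groups overlapped for these 3 as well.

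The share of SNORD27 rests on the same counts as its CPM above. SNORD27 was the only snoRNA whose share was separated between the groups, where 40.1% of all tested features had non-overlapping groups in CPM. It took 2.84% and 3.11% of the SNHG1 snoRNA counts in 52X T4A (95% Wilson intervals 2.7 to 2.98 and 2.99 to 3.23) and 4.92% and 4.09% in 52X WT (4.75 to 5.11 and 3.93 to 4.26). These intervals cover counting error only. The difference of −1.53 percentage points exceeded the replicate SD of 0.439, and leaving out each library in turn gave −1.95 to −1.12 points. An exact two-sided permutation test gave p = 0.333, the smallest that this design allows, and 1 after Benjamini-Hochberg adjustment over the 6.

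**Figure D4:**
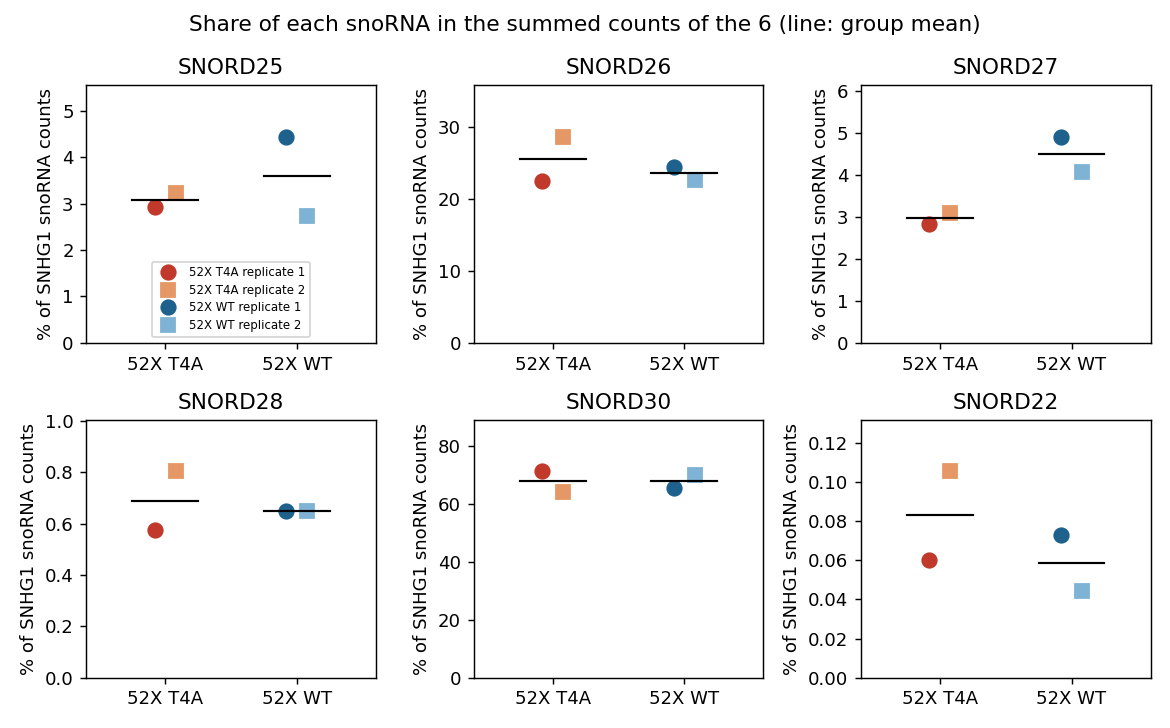
Percent of the summed counts of the 6 snoRNAs taken by each, in host order. Points are libraries, lines are group means, each panel has its own axis starting at 0, and SNORD27 takes 2.84% and 3.11% in 52X T4A and 4.92% and 4.09% in 52X WT, and the libraries of the groups overlap in the other panels.

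C/D box snoRNAs of other hosts are given beside these values. Of 10 listed snoRNAs in other noncoding hosts, 8 were found and 7 tested, and none was called by edgeR. Their median log2 fold change was −0.03, with 3 above 0 and 0 at an unadjusted p below 0.05 (edgeR). They ran from −0.94 ± 0.45 (SE) for SNORD1A, which was at 521 CPM in 52X WT replicate 1 and at 148 to 215 CPM in the other libraries, to 0.73 ± 0.35 for SNORD12C. Of 39 features in introns of ribosomal protein genes, none was called by edgeR, with a median of −0.22 and 14 above 0. At an unadjusted p below 0.05 (edgeR), 1 was higher and 4 lower, where 3.99% of all features were higher and 6.28% lower. The 39 ran from −1.69 ± 0.75 (SE) for SNORD24 to 0.72 ± 0.28 for SNORD18C. SNORD24 was at 85 CPM in 52X WT replicate 1 and at 10.6 to 18.8 CPM in the other libraries. The snoRNAs with promoters of their own ran from −0.17 ± 0.25 (SE) for SNORD118 to 0.27 ± 0.30 for SNORD13, with 3 tested and none called by edgeR, and with 0 at an unadjusted p below 0.05. No test of a difference between these lists and the SNHG1 snoRNAs was made. The snoRNAs of GAS5 were not analysed here.

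The profile of the summed SNHG1 snoRNAs over the 4 libraries was compared with that of 750 features outside the host that averaged 100 counts or more. The nearest, by the root mean square distance of centred log2 CPM over 4 libraries, were RNVU1-7, a variant U1 snRNA gene (0.0362), SNORD41 (0.0386), SNORA24B (0.0531), ENSG00000275110.1 (0.0542) and MIR1255A (0.0571). The median distance was 0.311. Among the members themselves the distance to their own sum was 0.0627 for SNORD30, which dominates it, and 0.142 for SNORD26. It was 0.175 for SNORD28, 0.267 for SNORD25, 0.316 for SNORD27 and 0.453 for SNORD22. Of the 750 outside features, 388 lay nearer to the sum than SNORD27 did and 603 lay nearer than SNORD22 did. SNORD22, at 24 to 87 counts per library, was itself below the mean of 100 counts that those features had to reach.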

How the data were processed

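Small RNA was measured in 4 libraries of single-end 50 bp reads. The authors deposited raw read counts per feature, without normalization. The submitters' processing notes name cutadapt v4.6, Bowtie2 v2.3.5.1, featureCounts v1.5.0 and hg38. The strand setting and the treatment of reads with several matches are not given in the sources used here. Features were named by RefSeq (GRCh38.p14) at an identical position or a reciprocal overlap of at least 90%, and otherwise by GENCODE identifier. A GENCODE name alone was not accepted for a member. Counts were filtered with filterByExpr (minimum count 10), scaled with TMM and tested by the quasi-likelihood test of edgeR v4.0.16 (R v4.3.3) with Benjamini-Hochberg adjustment over all features. The SE of a log2 fold change is its size over the square root of the F statistic. The script was tested on simulated data. Features named beyond the members were those with the extreme log2 fold changes of each list and the 5 nearest in profile. Alternatives covered scaling, filters, DESeq2 v1.42.0, thresholds, a replicate block and left-out libraries. Members and lists were chosen with earlier results of these data known. P-values of edgeR set the difference between groups against the spread between libraries, 2 per group. That spread is estimated partly from the other features tested, for edgeR's intervals as well. Depth was 16180790 to 27370127 counts, and Wilson intervals cover counting error only, while edgeR's intervals reflect the spread between replicates.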

Additional observations from a re-analysis of the deposited data

How the results depend on the processing

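No SNHG1 snoRNA was called under any alternative with 4 libraries and an FDR threshold. At an unadjusted p below 0.05 there was 1, SNORD27, and there were 0 after upper quartile, library size or C/D box scaling (edgeR) and without 52X T4A replicate 1, 52X T4A replicate 2 or 52X WT replicate 1. Leaving out each library in turn gave 0 to 2 called members. Such fits leave a group with a single library, assumed to vary like the other group. The 2 calls, SNORD27 and SNORD25, came without 52X WT replicate 2, with 218 calls over all features. Over all features, 2 were called, and the number became 9 with library size alone, 7 with factors from C/D box snoRNAs, 0 with factors from miRNAs (edgeR, 143 at an unadjusted p below 0.05), 29 without a filter, 29 with DESeq2, 0 at an FDR below 0.01 (edgeR, 152 at an unadjusted p below 0.05), 152 at that unadjusted p, and 4 to 218 with a library left out, the last an alternative added after seeing the data. Where recomputed, the median over the members and their summed ratio moved by less than the replicate spread, but both turned sign in places. The median of −0.10 ran from −0.26 to 0.09 with a library left out, the ratio from −0.35 to 0.09, and the ratio of −0.13 became 0.03 after upper quartile scaling, 0.04 after scaling to library size and 0.03 after C/D box scaling, against a shift of the median of all features from −0.05 to 0.13, 0.14 and 0.10. The signs of SNORD30, SNORD28 and SNORD26 turned with upper quartile factors (0.050, 0.10 and 0.14), library size alone (0.048, 0.11 and 0.15) and C/D box factors (0.033, 0.10 and 0.15). With a library left out the log2 fold changes ran from −0.16 to 0.86 for SNORD22, −0.43 to 0.15 for SNORD30, −0.26 to 0.037 for SNORD28, −0.27 to 0.14 for SNORD26 and −0.84 to 0.13 for SNORD25. With the replicate number as a block the calls rose from 2 to 18, both kept, and none was a member (SNORD27 at −0.73, FDR 0.304). The labels do not pair the libraries, and over features the correlation between deviations from the group mean of libraries sharing a number was 0.0946. For all these shifts, the cause was not tested. SNORD22 rests on 24 to 87 counts per library.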
